A study of Mus musculus with 20 samples.

Results

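Lymphatic endothelial cells (LECs) of mouse ear skin were compared between the light phase and the dark phase of the day. All 20 libraries of the series entered the comparison: the 10 of the light phase were the 5 libraries of zeitgeber time (ZT) 1 and the 5 of ZT7, and the 10 of the dark phase were the 5 of ZT13 and the 5 of ZT19. ZT counts the hours from lights on, so ZT1 and ZT7 fell within the lit hours and ZT13 and ZT19 within the dark hours, and every time point carried the same weight within its phase. The mice were wild type C57BL/6 (C57BL/6N in the methods of the study) at post natal day 56, no treatment is labelled, and the time point was the only labelled difference between groups. Live CD31+podoplanin+ cells were sorted from digested ears, and each library held the cells of a pair of mice, which were pooled before sequencing. With 2 time points in a phase, a difference between phases cannot be told apart from a difference between these 4 hours of the day.

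LECs line the lymphatic vessels, through which leukocytes and fluid leave the skin. Nearly every cell carries a circadian clock, a feedback loop in which CLOCK and BMAL1 (encoded by Arntl) switch on the Per and Cry genes, whose products then hold CLOCK and BMAL1 in check, while REV-ERB and ROR receptors and the PAR bZIP factors form further loops. Tissue clocks are set by light through the brain and by daily signals in the blood, among them glucocorticoid hormones, which act through a receptor that binds DNA and switches on genes such as Fkbp5 and Tsc22d3. Immediate early genes such as Fos are switched on within minutes by many stimuli, including tissue handling.

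More reads were counted on genes in the libraries of the dark phase than in those of the light phase. Reads counted on genes ran from 4475111 to 16936960 in the light phase (median 7314212) and from 4736532 to 42002363 in the dark phase (median 13483777). Of the reads counted on genes or on no feature, genes held 12.7% to 62.3% in the light phase (median 24.1%) and 20.1% to 81.6% in the dark phase (median 46.7%). The median of ZT13 was 22.9% and that of ZT19 64.0%, while ZT1 had 24.8% and ZT7 17.5%, so the higher share lay at ZT19. The dark minus light difference was 1.004 in log2 counts on genes (adjusted p = 0.0373, two-sided permutation test, adjusted over 3 properties) and 1.44 as the log2 odds that a read fell on a gene (permutation test, adjusted p = 0.0373). A mean of 19760.6 genes had a count in light libraries and 17128.5 in dark libraries, a difference of -2632.1 (permutation test, adjusted p = 0.0396). In 6 libraries genes held over 50% of these reads: replicate 2 of ZT7, replicate 5 of ZT13 and replicates 1, 2, 3 and 5 of ZT19.

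Markers of LECs were found in every library of both phases. The normalized count (the count scaled to a common effective library size) of Prox1, the transcription factor that sets lymphatic identity, ran from 1647 to 4414 in the light phase and from 1276 to 4490 in the dark phase. Lyve1, a hyaluronan receptor, ran from 6393 to 29894 and from 6424 to 24562, and Flt4, the receptor of lymphatic growth factors, from 6252 to 16379 and from 4799 to 17863. Pdpn, which encodes podoplanin, Pecam1, which encodes CD31, and the cadherin gene Cdh5 were also counted in all 20 libraries. Of the 11 lymphatic endothelial markers tested, 1 was lower in the dark phase at an unadjusted p of 0.05 or less, Nrp2, a co-receptor of lymphatic growth factors (log2 fold change -0.61, SE 0.29). This count was 0 to 1 when 1 library was left out, and Nrp2 was at 0.0041 without the 6 libraries with over 50% of reads on genes. Of all genes tested, 4.39% were higher and 8.97% lower in the dark phase at that p, and the counts of each marker list are to be read beside these shares. The summed level of the lymphatic list ranged from 54743 to 122133 in light libraries and from 83288 to 134332 in dark libraries.

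Genes of keratinocytes, the main cell type of the epidermis, were abundant in these sorted cells, and Krt14 and Krt5 were higher at ZT19 than at ZT13 (log2 fold changes of 2.86 and 2.84, edgeR, adjusted p = 0.00368 and 0.00308). Krt14, a keratin of basal keratinocytes, had normalized counts of 10695 to 30238 at ZT1 and 17130 to 56683 at ZT7 in the light, against 2936 to 11272 at ZT13 and 36654 to 72834 at ZT19 in the dark. The summed level of the 16 keratinocyte markers ranged from 38261 to 184823 in light libraries and from 10948 to 190501 in dark libraries. Of the 16, 15 had a log2 fold change under 0 and 2 were lower in the dark phase at an unadjusted p of 0.05 or less, Krt5 (-0.69, SE 0.31) and the desmosomal cadherin gene Dsc3 (-0.79, SE 0.38). Both are among the 11 markers in the highest of 3 bins of expression, where 3.33% of genes were lower in the dark, and the count ran from 0 to 4 when 1 library was left out. With ZT13 left out, both differences changed sign. Fibroblast markers, at sums of 2248 to 25699 and 6139 to 14375, had 0 of 12 genes at that p in either direction, and up to 1 in each without 1 library. Ptprc, which marks leukocytes, was listed at 0 in 1 of 10 light and 2 of 10 dark libraries. Of the 10 blood endothelial markers 1 was higher and 2 lower in the dark phase at that p, the latter Selp, the adhesion receptor P-selectin (10.5 to 157 in the light, 0 to 67.4 in the dark), and Aplnr, the apelin receptor (counts in 8 light and 4 dark libraries). Without 1 library these counts were 0 to 1 and 0 to 3. The 10 pan-endothelial, 10 smooth muscle and pericyte, 11 leukocyte and 7 chondrocyte and adipocyte markers had 0 at that p, although all 10 smooth muscle and pericyte markers had a log2 fold change under 0. Without 1 library up to 2 pan-endothelial and 1 chondrocyte or adipocyte marker were higher in the dark, and up to 1 pan-endothelial, 1 smooth muscle and pericyte, 3 leukocyte and 2 chondrocyte and adipocyte markers were lower. Among them Itgam, of myeloid cells, had counts in 10 light and 8 dark libraries, and Tyrobp, also of myeloid cells, in 8 and 6. Cspg4, of pericytes, had medians of 722 in the light and 412 in the dark. The adipocyte genes had medians of 51.1 in the light and 124 in the dark for Fabp4, and of 10.1 and 0.853 for Plin1. S100b, of Schwann cells, was the 1 of 8 melanocyte and Schwann cell markers lower in the dark, with its high values at ZT1 (mean 1032), and that count was 0 to 2 without 1 library. The part of other cell types in the results below was not tested. In bulk libraries, fewer cells of a type and less RNA per cell cannot be told apart.

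Tests across 19209 genes called few differences between the phases. With edgeR's quasi-likelihood test and Benjamini-Hochberg adjustment, 2 genes (0.0104%) were higher in the dark phase at an adjusted p under 0.05, and 0 genes (0%) were higher in the light phase. At an unadjusted p of 0.05 or less, 844 genes (4.39%) were higher in the dark and 1724 (8.97%) in the light phase, and the median log2 fold change of all genes was -0.22. Leaving out 1 library gave 496 to 1517 and 1399 to 3152 at that p, with 496 higher in the dark without replicate 5 of ZT13, 1517 without replicate 3 of ZT13 and 3152 higher in the light without replicate 4 of ZT19. In no gene (0% in either direction) did all 10 libraries of one phase lie above all 10 of the other. Other settings gave other counts: DESeq2 called 50 genes higher in the dark and 207 in the light, limma-voom 13 and 3, edgeR without ZT13 320 and 296, and edgeR without ZT19 11 and 7. When these log2 odds entered as a covariate, edgeR called 0 genes in either direction, and at an unadjusted p of 0.05 or less it placed 1030 genes higher in the dark and 298 in the light, with a median log2 fold change of 0.06.

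The direction of the unadjusted differences followed the expression level of the gene. Among 3 bins of 6403 genes each, in the lowest bin by mean normalized count over all libraries, 0.0469% were higher in the dark and 18.7% in the light, and the median log2 fold change was -1.32. In the middle bin these shares were 2.2% and 4.86%. In the highest bin, with means of 355 and above, 10.9% were higher in the dark and 3.33% in the light, and the median log2 fold change was 0.10. The plot of libraries and expression levels shows this beside the share of reads on genes, which also differed between the phases, and the part of that share in the low-count differences was not tested. With genes kept only at 1 CPM (counts scaled per library size) or more in at least 10 libraries, 1338 genes were higher in the dark and 664 in the light at that p.

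**Figure D1:**
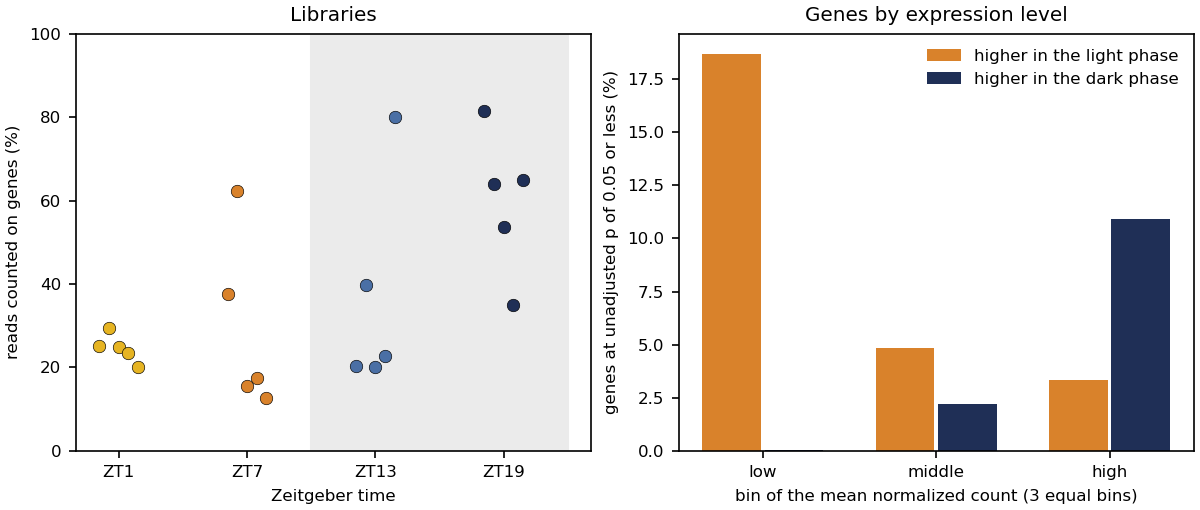
Left, the percent of reads counted on genes (of reads on genes or on no feature) in each library by zeitgeber time, with the dark phase shaded; right, the percent of genes higher in either phase at an unadjusted p of 0.05 or less in each bin of the mean normalized count. The median is 64.0% at ZT19 and between 17.5% and 24.8% at the other time points, and the low bin holds 18.7% of genes higher in the light against 10.9% higher in the dark in the high bin.

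Slc10a6 and Fkbp5 were higher in the dark phase, and both were put on the list of glucocorticoid-responsive genes with their values known. Slc10a6 (chromosome 5, 103605711 to 103629403, minus strand, GENCODE M21 on GRCm38) encodes a transporter that carries sulfated steroids into cells. Its normalized counts were 595, 443, 525, 370 and 333 at ZT1 and 884, 1350, 961, 1012 and 554 at ZT7 in the light, against 1721, 2384, 1896, 1443 and 3185 at ZT13 and 1964, 2248, 1878, 676 and 2136 at ZT19 in the dark. Of the 10 dark libraries 9 lay above the highest light library, and replicate 4 of ZT19 was the exception. The log2 fold change was 1.57 (SE 0.24, edgeR quasi-likelihood test, adjusted p = 0.0095). The gene was called in all 20 fits that left out 1 library, with log2 fold changes of 1.47 to 1.74. It was not called with phase as the only factor (1.47, edgeR, adjusted p = 0.0803), with the log2 odds that a read fell on a gene as covariate (1.15, adjusted p = 0.501), with keratinocyte and fibroblast scores as covariates (1.41, adjusted p = 0.406), without ZT1 (1.04, adjusted p = 0.687) or without the 6 libraries with over 50% of reads on genes (0.86, adjusted p = 0.799, edgeR), where ZT19 keeps 1 library.

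Fkbp5 (chromosome 17, 28399094 to 28517527, minus strand) encodes a co-chaperone that lowers the hormone affinity of the glucocorticoid receptor. Its normalized counts were 430, 490, 320, 347 and 448 at ZT1 and 466, 442, 410, 567 and 390 at ZT7 in the light, against 1249, 1401, 1101, 1725 and 2296 at ZT13 and 876, 1218, 681, 313 and 699 at ZT19 in the dark. All 5 ZT13 libraries lay above every light library, and 4 of the 5 ZT19 libraries did, with replicate 4 of ZT19 below all of them. The log2 fold change was 1.34 (SE 0.23, edgeR, adjusted p = 0.0251). The call was lost in 11 of the 20 fits without 1 library (adjusted p from 0.00227 to 0.114 over the 20, edgeR). It was also lost with phase as the only factor (1.42, edgeR, adjusted p = 0.0803), with the log2 odds covariate (1.03, 0.501) and with the keratinocyte and fibroblast scores (1.09, 0.582). A replicate block lost it too, with values given in the last section. The same held without ZT1 (1.26, 0.687), ZT7 (1.65, 0.142) or ZT13 (0.83, 0.083). Without the 6 libraries with over 50% of reads on genes, where ZT19 keeps 1 library, the log2 fold change was 0.60.

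**Figure D2:**
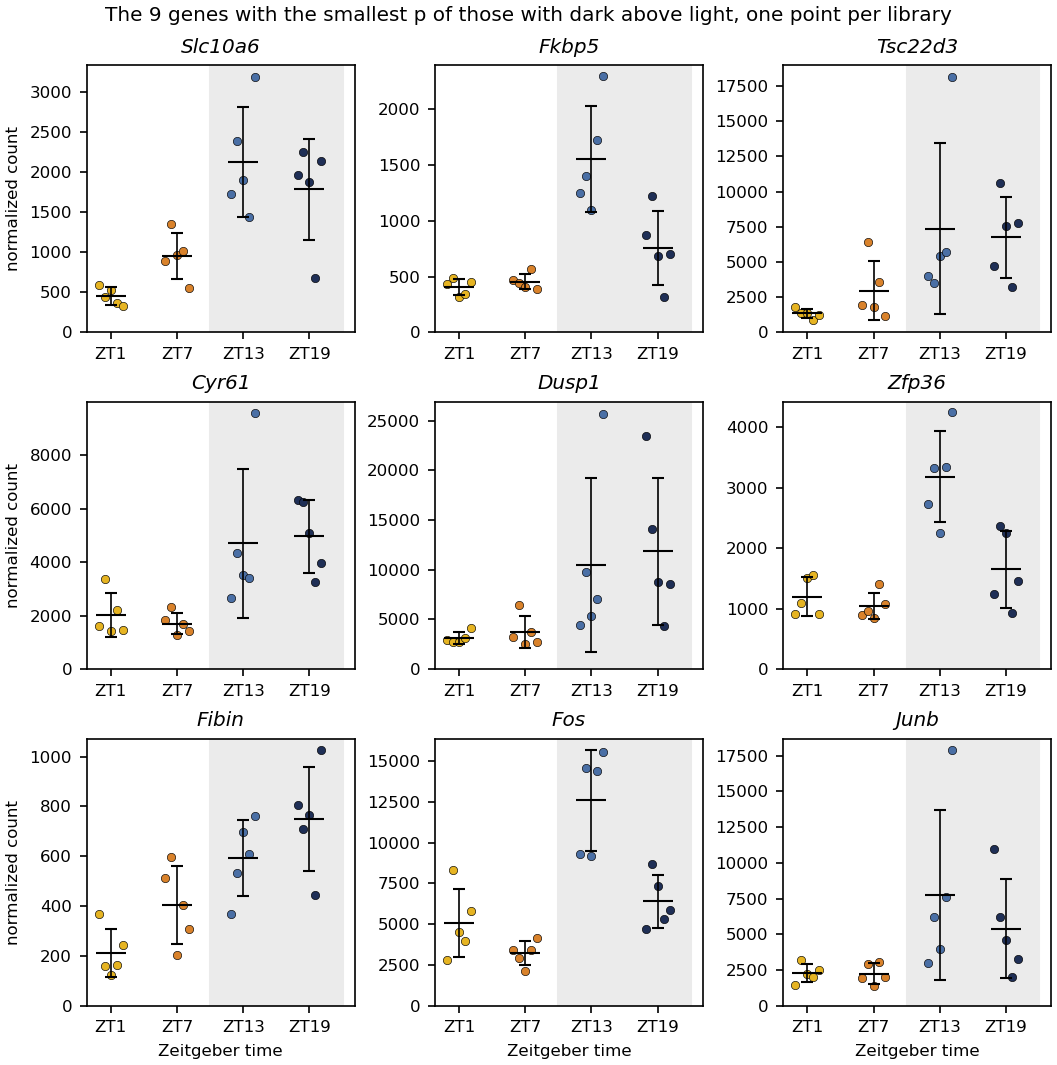
Normalized counts of the 9 genes with the smallest p among those with dark above light, 1 point per library, with the mean and SD of each time point and the dark phase shaded. Slc10a6 and Fkbp5 passed the adjusted test, and in 9 of 10 dark libraries each lies above the highest light library; replicate 5 of ZT13 is the highest point for every gene but Fibin, which is highest in replicate 5 of ZT19 (1026).

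The next genes in order of p were also higher in the dark, but their adjusted p missed 0.05. Tsc22d3, which encodes the glucocorticoid-induced leucine zipper protein, had light counts of 907 to 6385 (median 1595) and dark counts of 3192 to 18102 (median 5595). Its log2 fold change was 1.82 (SE 0.34, edgeR, adjusted p = 0.0682), and its groups overlapped through 2 light libraries of ZT7. Cyr61, a secreted matrix protein gene, had light counts of 1272 to 3377 and dark counts of 2657 to 9575, and 9 light libraries lay below the lowest dark one. Its log2 fold change was 1.39 (SE 0.26, edgeR, adjusted p = 0.0682). Dusp1, a phosphatase that switches off MAP kinases, had light counts of 2549 to 6485 and dark counts of 4325 to 25685, and again 9 light libraries lay below the lowest dark one. Its log2 fold change was 1.70 (SE 0.34, edgeR, adjusted p = 0.103). In the fit without ZT13 Tsc22d3, Cyr61 and Dusp1 all passed (edgeR, adjusted p = 0.0386, 0.0366 and 0.0366). That fit called 320 genes higher in the dark and 296 in the light. Of the 20 fits without 1 library, Tsc22d3 was not called in 16, Cyr61 in 17 and Dusp1 in 18.

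Of the 20 glucocorticoid-responsive genes tested, 9 were higher in the dark and 0 in the light at an unadjusted p of 0.05 or less. The 2 that passed after adjustment, Slc10a6 and Fkbp5, were listed with their values known, and no other member passed. The background at that p was 4.39% of all genes and 10.9% of the genes in the highest expression bin, which holds 18 of the 20 and all 9. The list's median log2 fold change was 0.59, against -0.22 over all genes and 0.10 in the highest expression bin, and 16 of the 20 lay above 0, values that include members listed with their values known. Beside the genes already named, the 9 held Cebpd and Cebpb, which encode C/EBP transcription factors, with log2 fold changes of 0.96 (SE 0.22) and 0.97 (SE 0.28), and Zbtb16, which encodes a zinc finger repressor (1.07, SE 0.26). Nfkbia, which encodes the inhibitor of NF-κB, had 0.91 (SE 0.29), and Sult1a1, a sulfotransferase, was the last. Mt1, Mt2, Ddit4, Klf9 and Per1, which glucocorticoids also switch on in many tissues, did not reach that p. Slc10a6, Fkbp5 and Cebpd were put on the list with their values known, which leaves 6 of the other 17, with a median of 0.53 and 13 above 0. Klf15, a further glucocorticoid target chosen after its values were seen, had light counts of 76.6 to 237.7 and dark counts of 87.7 to 1593, with a log2 fold change of 1.45 (SE 0.35, edgeR, adjusted p = 0.261).

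Immediate early genes gave a similar count. Of the 19 tested, 9 were higher in the dark and 0 in the light at an unadjusted p of 0.05 or less. The highest expression bin, where 10.9% of genes were higher in the dark, holds 14 of the 19 and 8 of the 9, and the share over all genes was 4.39%. The median log2 fold change of the list was 0.44, and 0 passed after adjustment. Fos, a subunit of the AP-1 transcription factor, had light counts of 2137 to 8299 (median 3710) and dark counts of 4712 to 15529 (median 8936). Its dark libraries split by time point, since ZT13 held 9156 to 15529 and ZT19 4712 to 8716, which overlaps ZT1. Its log2 fold change was 1.15 (SE 0.25, edgeR, adjusted p = 0.185). Junb, another AP-1 subunit, had 1.503 (SE 0.33) and Zfp36, which encodes an mRNA decay factor, had 1.03 (SE 0.22), both with an adjusted p of 0.185 in edgeR. The other 6 were Egr1 (0.90, SE 0.25), Btg2 (0.98, SE 0.26), Klf2 (1.001, SE 0.28), Jun, Ier2 and Atf3. Without the 6 libraries with over 50% of reads on genes, 4 of these genes and 8 of the glucocorticoid-responsive genes stood at that p in the dark direction. Fibin, a secreted protein gene on neither list, had a log2 fold change of 1.18 (SE 0.26, edgeR, adjusted p = 0.185).

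**Figure D3:**
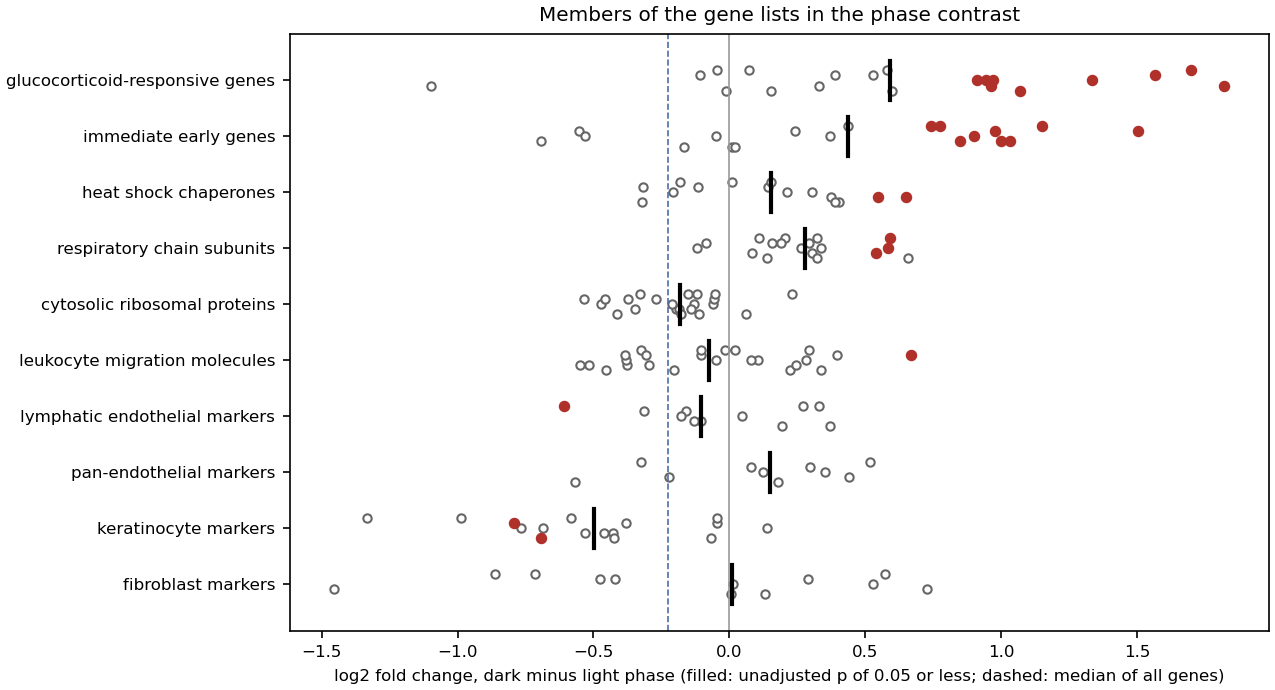
Log2 fold change, dark minus light phase, of each member of 10 gene lists, with filled points at an unadjusted p of 0.05 or less, black bars for list medians and a dashed line at the median of all genes (-0.22). The glucocorticoid-responsive and immediate early lists each have 9 filled points, all above 0, and their medians are 0.59 and 0.44; without Slc10a6, Fkbp5 and Cebpd, which were listed with their values known, the former is 0.53.

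The size of these differences varied with the pair of time points compared. For Slc10a6 the log2 fold change was 2.23 (SE 0.35) for ZT13 minus ZT1, 1.97 (SE 0.34) for ZT19 minus ZT1, 1.16 (SE 0.33) for ZT13 minus ZT7 and 0.90 (SE 0.33) for ZT19 minus ZT7, with ZT1 the lowest time point. For Fkbp5 it was 1.93 (SE 0.33) and 1.77 (SE 0.32) for ZT13 against ZT1 and ZT7, and 0.90 (SE 0.32) and 0.74 (SE 0.32) for ZT19, with ZT13 the highest. Cyr61 had values of 1.22 to 1.55 in all 4 pairs. Cebpd had 1.86 (SE 0.32) for ZT13 minus ZT1 and 0.07 (SE 0.30) for ZT19 minus ZT7. The 4 pairs share libraries. The test of whether the ZT13 minus ZT1 and ZT19 minus ZT7 differences are equal called 11 of all genes (0.0573%), and neither Slc10a6 (edgeR, adjusted p = 0.198) nor Fkbp5 (0.213) was among them.

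**Figure D4:**
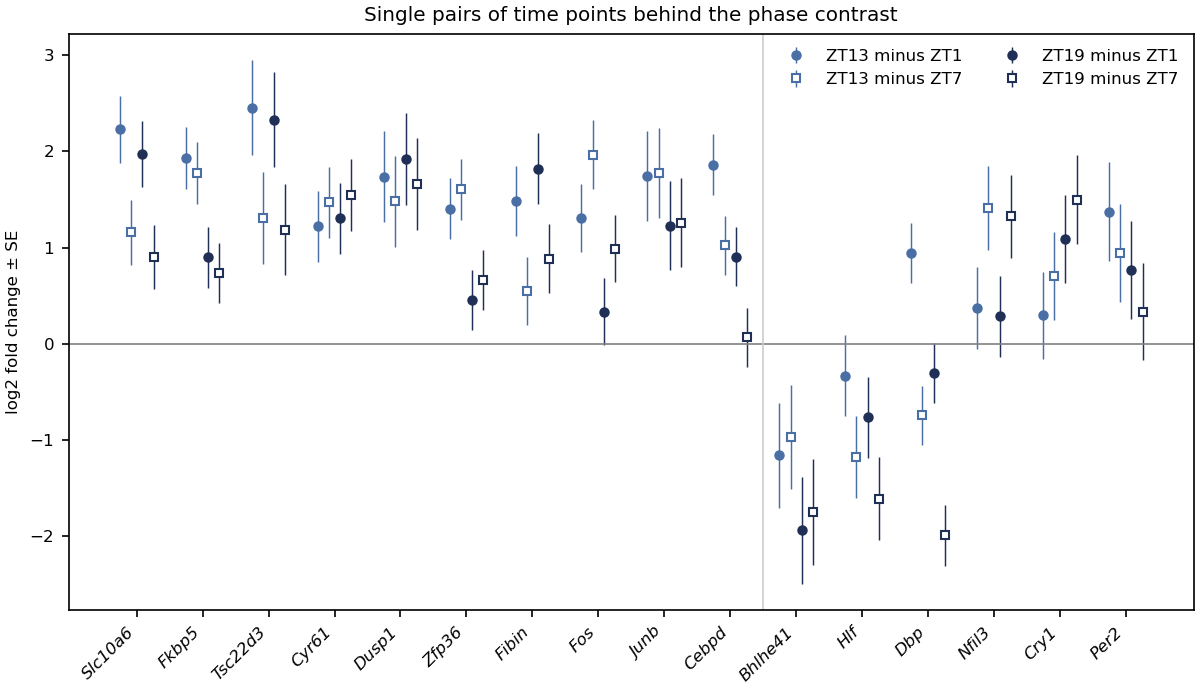
Log2 fold change with its SE for the 4 pairs of a dark and a light time point, for the 10 genes with the smallest p of those higher in the dark (left of the line) and 6 clock genes. All 4 pairs lie above 0 for the 10 genes, while Dbp lies at 0.95 for ZT13 minus ZT1 and -1.99 for ZT19 minus ZT7.

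Clock genes had log2 fold changes of both signs in the phase comparison. Of the 8 clock repressors, 2 were higher in the dark and 1 in the light at an unadjusted p of 0.05 or less, and none passed after adjustment. Over all genes these shares were 4.39% and 8.97%, and without 1 library the count higher in the dark ran from 1 to 3 and the count in the light stayed at 1. Cry1, a repressor of CLOCK and BMAL1, had light counts of 134 to 548 and dark counts of 231.5 to 1492, and a log2 fold change of 0.90 (SE 0.32, edgeR, adjusted p = 0.262). Per2, its partner, had 57.5 to 391 in the light and 92.1 to 597 in the dark (0.85, SE 0.36, edgeR, adjusted p = 0.313). Its ZT13 libraries were the most even, at 480 ± 90.0 (SD, n = 5), while ZT19 gave 315 ± 213. Bhlhe41, which encodes the repressor DEC2, was lower in the dark, with light counts of 50.9 to 891 (median 368) and dark counts of 38.0 to 385 (median 125). Its log2 fold change was -1.45 (SE 0.39, edgeR, adjusted p = 0.261), and its relative Bhlhe40 had 0.55 (SE 0.28). Per1, Per3, Cry2 and Ciart had mean counts of 650, 902, 954 and 102 at ZT1 and 973, 1432, 864 and 324 at ZT7 in the light, against 1189, 1744, 1019 and 293 at ZT13 and 523, 1093, 1161 and 208 at ZT19 in the dark. Per1, Per3 and Ciart thus had their lowest means at ZT1 or ZT19, 1 time point of each phase.

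All 4 clock activators had a log2 fold change under 0, where the median of all genes was -0.22, and 1, Clock, had an unadjusted p of 0.05 or less (-0.57, SE 0.25, edgeR, adjusted p = 0.334). Of all genes 8.97% were lower in the dark at that p, and the count of 1 was 0 to 1 without 1 library. Arntl had 389 ± 149 (SD, n = 5) at ZT1 and 217 ± 106 at ZT7 in the light, against 112 ± 76.9 at ZT13 and 350 ± 110 at ZT19 in the dark, so that its high time points, ZT19 and ZT1, lay in different phases. Npas2 and Arntl2 had means of at most 78.1 and 141. Nr1d1, Nr1d2, Rora and Rorb all had a log2 fold change under 0 and 0 of these 4 reached that p. Nr1d1, which encodes REV-ERBα, had -0.43 (SE 0.24), or -0.23 without replicate 3 of ZT13, with a mean of 1851 ± 438 (SD, n = 5) at ZT7 and 1081 to 1298 at the other time points. Nr1d2 had means of 889, 1340, 1396 and 694 at ZT1, ZT7, ZT13 and ZT19. Rora and Rorb had SDs at ZT13 of 240 and 264 around means of 465 and 161.

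The PAR bZIP factors, which drive genes through D-box elements, and Nfil3, which binds the same elements as a repressor, lay on both sides. Hlf was lower in the dark (224 to 863 in the light, 118 to 472 in the dark, log2 fold change -0.97, SE 0.30, edgeR, adjusted p = 0.261) and Nfil3 higher (129 to 753 and 266 to 1028, 0.85, SE 0.30, edgeR, adjusted p = 0.261). Tef had means of 1755, 2230, 2978 and 2011 in the order of the time points. Dbp gave -0.52 (SE 0.22, edgeR, adjusted p = 0.312) between the phases, with 237 ± 41.5 (SD, n = 5) at ZT1 and 766 ± 156 at ZT7 in the light, against 457 ± 70.6 at ZT13 and 192 ± 60.1 at ZT19 in the dark. Both its highest and its second lowest mean thus lay in the light phase, and its 2 pairs differed from each other, with a log2 fold change of 0.95 (SE 0.31) for ZT13 minus ZT1 and -1.99 (SE 0.32) for ZT19 minus ZT7 (difference 2.94, edgeR, adjusted p = 0.00581).

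**Figure D5:**
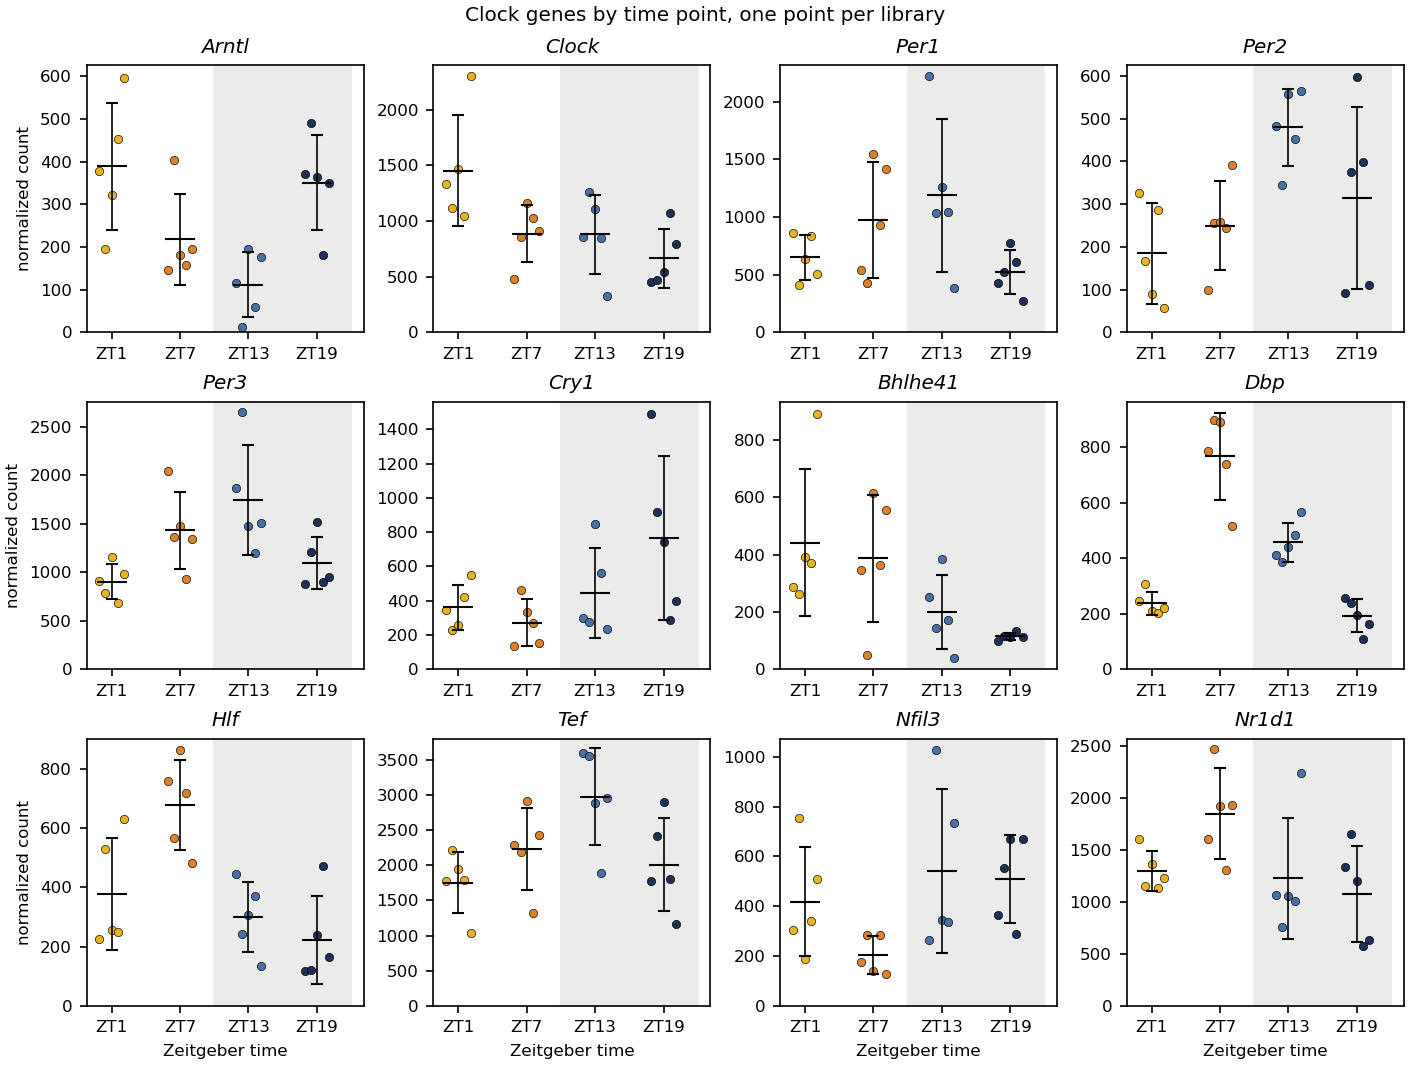
Normalized counts of 12 clock genes by zeitgeber time, 1 point per library, with the mean and SD of each time point and the dark phase shaded. Dbp is highest at ZT7 (mean 766) and Arntl lowest at ZT13 (mean 112), while Bhlhe41 lies at means of 441 and 387 in the light and 198 and 115 in the dark.

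Promoters of the clock and leading genes were searched for short motifs. Each is 300 bases, 250 before and 50 after the start site that RefSeq gives on GRCm38.p6, 5′ to 3′ on the strand of the gene. Capitals mark an E-box (CACGTG, the element of CLOCK and BMAL1) or a cyclic AMP response element (TGACGTCA), both the same on either strand. The 5 shown hold a match and belong to Fkbp5 and Dusp1 of the dark-higher genes and Cry1, Bhlhe41 and Hlf of the clock genes. E-boxes also lay in Tef, Per1, Ciart and the light-higher Olfr1402. No motif searched was found in Slc10a6, Tsc22d3, Cyr61, Zfp36, Fibin, Fos or Junb of the dark-higher genes. The same held for the clock genes Arntl, Clock, Npas2, Arntl2, Cry2, Nr1d1, Nr1d2, Rora, Rorb, Dbp and Nfil3. It also held for Fam131b, Nxf7, H2-M11, Chrna4, Hgf and Musk of the light-higher genes. Cebpd, Per2, Bhlhe40 and some others had no promoter to search.
Fkbp5, chr17:28486100-28486399, minus strand: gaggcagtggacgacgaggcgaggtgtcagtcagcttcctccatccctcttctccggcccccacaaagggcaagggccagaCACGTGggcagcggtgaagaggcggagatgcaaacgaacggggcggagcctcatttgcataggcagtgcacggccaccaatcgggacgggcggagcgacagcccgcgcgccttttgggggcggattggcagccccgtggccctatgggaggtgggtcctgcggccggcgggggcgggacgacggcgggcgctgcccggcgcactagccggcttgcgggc
Dusp1, chr17:26508423-26508722, minus strand: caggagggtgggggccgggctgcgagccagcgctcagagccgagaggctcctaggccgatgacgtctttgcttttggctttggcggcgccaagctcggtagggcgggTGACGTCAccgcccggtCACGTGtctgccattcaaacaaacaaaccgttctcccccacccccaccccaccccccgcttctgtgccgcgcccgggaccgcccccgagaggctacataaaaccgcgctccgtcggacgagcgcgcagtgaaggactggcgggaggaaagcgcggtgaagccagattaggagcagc
Cry1, chr10:85185005-85185304, minus strand: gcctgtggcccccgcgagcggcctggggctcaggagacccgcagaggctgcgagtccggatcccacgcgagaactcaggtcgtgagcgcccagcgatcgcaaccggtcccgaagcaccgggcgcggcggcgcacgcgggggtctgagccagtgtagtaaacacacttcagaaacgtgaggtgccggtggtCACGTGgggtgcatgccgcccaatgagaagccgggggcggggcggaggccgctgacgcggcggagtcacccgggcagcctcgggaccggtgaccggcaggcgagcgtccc
Bhlhe41, chr6:145865371-145865670, minus strand: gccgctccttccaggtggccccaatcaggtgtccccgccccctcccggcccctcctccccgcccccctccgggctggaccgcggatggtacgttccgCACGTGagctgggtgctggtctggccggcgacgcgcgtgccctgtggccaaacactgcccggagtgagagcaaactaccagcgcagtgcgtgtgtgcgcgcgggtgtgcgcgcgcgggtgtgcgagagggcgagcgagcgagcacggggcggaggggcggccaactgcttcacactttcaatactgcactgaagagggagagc
Hlf, chr11:90390868-90391167, minus strand: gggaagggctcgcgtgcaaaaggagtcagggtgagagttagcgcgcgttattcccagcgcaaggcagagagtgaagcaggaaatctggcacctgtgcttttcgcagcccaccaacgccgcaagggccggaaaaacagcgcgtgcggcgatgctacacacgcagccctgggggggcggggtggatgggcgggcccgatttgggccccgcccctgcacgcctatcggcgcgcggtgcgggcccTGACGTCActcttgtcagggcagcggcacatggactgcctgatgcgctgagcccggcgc

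The E-box begins at base -169 of Fkbp5, -126 of Dusp1, -60 of Cry1 and -153 of Bhlhe41, counted from the start site, and the response element at -143 of Dusp1 and -9 of Hlf. The start site of Fkbp5 in RefSeq lies inside the longer GENCODE gene. Cry1 was higher and Bhlhe41 lower in the dark phase at an unadjusted p of 0.05 or less, and both hold an E-box here. An E-box was found in 7.15% of 32851 promoters of this length, in 3 of the 17 glucocorticoid-responsive genes with a promoter in the table and in 2 of the 16 immediate early genes. The response element was found in 1.79% of promoters and in 1 gene of each list. The other motifs searched on both strands were the D-box (TTATGTAA in 0.938% and TTACGTAA in 0.119%), the AP-1 site (TGAGTCA, 5.2%) and the glucocorticoid receptor element (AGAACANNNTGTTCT, 0.00913%). That last element matched 0 promoters of either list in this window, and Per3 held TTATGTAA at -205 and again at -158.

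No gene passed the adjusted test as higher in the light phase, and 1724 did at an unadjusted p of 0.05 or less (edgeR). Of the 10 with the smallest p, Bcl6b, which encodes a transcriptional repressor of endothelial cells, had light counts of 270 to 2859 (median 750) and dark counts of 276 to 561 (median 382). Its log2 fold change was -1.13 (SE 0.26, edgeR, adjusted p = 0.261), and the difference lay at ZT1, with a mean of 1501 ± 852 (SD, n = 5) against 532, 383 and 437 at ZT7, ZT13 and ZT19. Hgf, which encodes hepatocyte growth factor, had 79.9 to 963 in the light and 33.9 to 255 in the dark (-1.63, SE 0.40, edgeR, adjusted p = 0.261), and 6 light libraries lay above every dark one. Dsg1a, a desmosomal cadherin gene of keratinocytes, had means of 194, 905, 31.4 and 453 (-1.85, SE 0.45, edgeR, adjusted p = 0.261). It changed sign without ZT13, as Krt5 did.

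The other 7 were at 0 in at least 5 dark libraries each. Nxf7 and Olfr1402 had raw counts of 0 in all 10 dark libraries and counts above 0 in 7 light libraries each, at most 31 and 49. Both could pass edgeR's filter only through light libraries, so the filter fixed their direction. H2-M11 had counts in 7 light libraries and 1 dark library, and Spn-ps in 8 and 2. Fam131b, Musk and Chrna4 had counts in 10, 10 and 9 light libraries and in 5 dark libraries each, with at most 148, 475 and 128 counts in a light library. The 475 of Musk stood in replicate 5 of ZT1. All 5 ZT19 libraries were at 0 for Fam131b, where 3 counts would be 8.33e-06% to 2.78e-05% of the reads on genes, and Fam131b had 22 to 55 counts at ZT13. No fold change over both phases is given for these 7, since the fitted value of a gene at 0 in many libraries depends on the prior count.

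The listed molecules with which LECs guide leukocytes were near the share of all genes in the dark direction. Ccl21a and Cd99 were not on this list. Of 24 tested, 1 was higher in the dark and 0 in the light at an unadjusted p of 0.05 or less, against 4.39% and 8.97% of all genes, and the median log2 fold change was -0.08. The highest expression bin holds 16 of the 24 and the 1 gene, and there 10.9% of genes were higher in the dark and 3.33% in the light. The 1 gene was Sphk1, a kinase that makes sphingosine 1-phosphate, a lipid that draws lymphocytes into lymph (331 to 820 in the light, 474 to 1074 in the dark, 0.67, SE 0.21, edgeR, adjusted p = 0.261). Its ZT19 libraries had a mean of 941 ± 124 (SD, n = 5), against 479, 456 and 587 at ZT1, ZT7 and ZT13. The chemokine gene Cxcl12 had -0.52 (SE 0.27), or -0.32 without replicate 2 of ZT1, and Lyve1 and Pecam1 overlapped between the phases. Of the 117 adhesion genes that the study listed from these libraries and that were tested, 21 were higher in the dark and 14 in the light at that p, against 4.39% and 8.97% of all genes and 10.9% and 3.33% in the highest expression bin, which holds 111 of the 117. Without 1 library these counts ran from 15 to 27 and from 7 to 23 (23 without replicate 4 of ZT19, 7 without replicate 3 of ZT7 or of ZT13). None passed after adjustment, and the list is not independent evidence of a direction. Its smallest p belonged to Dusp1, and the second smallest to Il2rg, the common γ chain of interleukin receptors (67.0 to 348 in the light, 161 to 1265 in the dark, 1.32, SE 0.35, edgeR, adjusted p = 0.261).

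Genes of energy metabolism, stress and detoxification had small positive medians. Of the 18 respiratory chain subunits, 3 were higher in the dark at an unadjusted p of 0.05 or less, 16 had a log2 fold change above 0, and the median was 0.28. All 18 lie in the highest expression bin, where 10.9% of genes were higher in the dark and the median was 0.10, so the count is near that share. Without 1 library the count ran from 0 (without replicate 5 of ZT13) to 5. Ndufv1, of complex I, had 0.58 (SE 0.24) and Uqcrc1, of complex III, had 0.59 (SE 0.27), with ZT19 the highest time point of both (means of 3702 and 7843). Without ZT19 no respiratory chain gene stood at that p, and Uqcrc1 changed sign. Without replicate 5 of ZT13 Uqcrc1 had 0.37. Of the 15 heat shock chaperones, 2 were higher in the dark, Hsph1 (0.65, SE 0.30) and the endoplasmic reticulum chaperone Hspa5 (0.55, SE 0.26), and leaving out 1 library gave 0 to 4. Gpx3, a secreted glutathione peroxidase (1.11, SE 0.36), and Gstm1, a glutathione transferase (0.68, SE 0.27), were the 2 of 16 redox genes. The highest expression bin holds 13 of the heat shock and 11 of the redox genes, and these counts too are near its share. Gpx3 had medians of 2368, 598, 1069 and 2603 in the order of the time points, and 3 of the 5 ZT13 libraries lay within the ZT7 range of 537 to 1114. Without replicate 5 of ZT13, at 7835, its log2 fold change was 0.67.

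Of the 21 cell cycle genes, 2 were higher in the dark and 2 in the light at that p, against 4.39% and 8.97% of all genes. All 4 are among the 9 members in the highest expression bin, where the shares were 10.9% and 3.33%, and without 1 library the counts were 1 to 3 and 1 to 2. Top2a, the topoisomerase of dividing cells, gave -0.84 (SE 0.32) with means of 1722, 358, 297 and 643 in the order of the time points, and its 2 pairs differed (-3.38, edgeR, adjusted p = 0.0363). Pcna, the clamp of DNA replication, gave 0.50 (SE 0.20), with ZT19 at 1410 ± 314 (SD, n = 5) and the other time points at means of 621 to 691. H2-D1 (0.66, SE 0.28) and Tap2 (0.68, SE 0.29), which serve antigen presentation by MHC class I, were the 2 of 13 antigen presentation genes higher in the dark, against 4.39% of all genes. Both are among the 6 members in the highest expression bin, where 10.9% of genes were higher in the dark. Tap2 was at 2326 in replicate 5 of ZT13 and at 506 to 807 in the other ZT13 libraries, and without that replicate it had 0.38. Of the 17 angiogenic genes 2 were lower in the dark, Nrp2 and Vegfc, and of all genes 8.97% were lower at that p. Without 1 library the count was 1 to 2. Vegfc changed sign without ZT19 (0.67), and Nrp2 without the 6 libraries with over 50% of reads on genes (0.0041). Vegfc had counts in 8 light and 2 dark libraries, and those 2, at 57.4 and 43.7, lay above every light library (at most 34.2). The 22 ribosomal protein genes had 0 at that p in either direction, the interferon-stimulated genes 0 of 16 (Rsad2 had 0 to 273 in the light and 0 to 201 in the dark), and the cold-inducible genes Rbm3 (0.46, SE 0.24, or 0.30 without replicate 5 of ZT19) and Cirbp 0 of 2. Without 1 library up to 3 ribosomal protein and 2 interferon-stimulated genes were lower in the dark at that p, and the antigen presentation count was 1 to 2.

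Within the phases, more genes were called between the dark than between the light time points. ZT19 minus ZT13 called 113 genes (0.588%), 96 higher and 17 lower at ZT19, and ZT7 minus ZT1 called 1 gene (0.00521%), lower at ZT7 (edgeR). In single pairs across the phases, ZT13 minus ZT1 called 3 genes higher and 1 lower, ZT13 minus ZT7 3 and 15, ZT19 minus ZT1 3 and 0, and ZT19 minus ZT7 1 and 2. The 4 ZT19 libraries with over 50% of reads on genes and the high Krt14 of ZT19 move with the dark time points, and their part in these counts was not tested.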

How the data were processed

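RNA of sorted LECs was made into full-length cDNA with SMART-Seq v4 and into libraries with Nextera XT, per the labels, and sequenced single-end. The authors trimmed the reads, aligned them to mm10 with STAR and counted them per gene with HTSeq (version 1.0.0 in the submitters' processing notes), and they deposited raw counts per gene symbol for each library. The annotation and the strand setting are not given in the sources used here, so reads of overlapping or antisense genes cannot be told apart. The 5 lines that name no gene were removed before library sizes were set. Of 24062 symbols, 19209 passed edgeR's filter by time point. Counts were scaled by TMM and fitted with edgeR 4.0.16 (quasi-likelihood, 1 mean per time point, all 20 libraries), and the dark phase was the mean of ZT13 and ZT19 minus that of ZT1 and ZT7. All p-values are two-sided, and those adjusted by Benjamini-Hochberg were adjusted over all genes tested. Library properties were compared by permutation (100000 resamples). The common biological coefficient of variation was 1.00, and the 2 most alike libraries differed by a chi-square of 14.6 per degree of freedom, so none was counted as a repeat.

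The members and gene lists were chosen with earlier results of these data known. The rule named the 10 genes with the smallest p in each direction (fewer than 10 passed), all clock genes, the 2 members of smallest p in every other list and 9 markers. A fold change is printed for those with an unadjusted p up to 0.1, and levels for some of the others. Some genes that the rule names are not reported here. Zbtb16, Cebpb, Nfkbia, Klf2, Egr1, Btg2 and Klf15 were named after their values were seen, as were list members given without values, and so was the split into 3 bins of expression. The fit was also run on simulated counts drawn independently for each gene and library, and the outcome is not given here. Such counts lack shifts shared by many genes of a library, so they do not vouch for these data. Alternatives were DESeq2 1.42.0, limma 3.58.1 (voom), other scalings, filters and covariates, thinned counts, a replicate block, and left-out libraries or time points. Floors of 3 counts cover counting error only. Each library pooled cells of a pair of mice, and p-values measure the spread between such pools.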

Additional observations from a re-analysis of the deposited data

Results flagged for a closer look

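In 4 named genes the dark minus light difference was not equal in the pair ZT13 and ZT1 and the pair ZT19 and ZT7, by edgeR's test of the difference itself with Benjamini-Hochberg adjustment. Dbp, a PAR bZIP clock factor, had an adjusted p of 0.00581 and Top2a, of dividing cells, 0.0363. Ccdc80, a matrix protein gene of fibroblasts, had 0.0256, with means of 2003 at ZT1 and 224 at ZT7 in the light, against 740 at ZT13 and 1328 at ZT19 in the dark. Fam131b had 0.0315, with counts of 22 to 55 at ZT13 and 0 in all ZT19 libraries.

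A library stood apart from the other 4 of its time point in 25 of 360 tested combinations of a named gene and a time point, where chance gives about 18 (1 in 20). The value given is the gap to the nearest library divided by the range, on the log2 scale with a pseudocount of 1. Slc10a6 was low in replicate 4 of ZT19 (0.851), which holds the least share of reads on genes of that time point, and Klf2 was low in replicate 1 of ZT19 (0.853). Replicate 4 of ZT19 was high for Pdpn (0.726) and Aplnr (1), and replicate 1 of ZT19 for Chrna4 (1). Replicate 2 of ZT7, the light library with the largest share of reads on genes, was high for Sphk1 (0.763), Gpx3 (0.75) and Arntl (0.715) and low for Bhlhe41 (0.77), Fam131b (0.735) and S100b (0.915). Replicate 1 of ZT7 was high for Fabp4 (0.773) and Rps19 (0.754), and replicate 5 of ZT7 was low for Il2rg (0.737). Replicate 5 of ZT13, the library with the most reads counted on genes, was low for Fam131b (0.878), Cdh5 (0.717), Npas2 (0.745) and Ptprc (0.814). Replicate 2 of ZT13 was high for Bcl6b (0.755), Emcn (0.788) and Pdpn (0.812), and replicate 4 of ZT13 was high for H2-M11 (1). At ZT1, replicate 5 was high for Rsad2 (0.793) and low for Tef (0.712), and replicate 1 was high for Col3a1 (0.886).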

How the results depend on the processing

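The count of 2 genes higher in the dark and 0 in the light was the same with total count scaling, no filter, the strict filter, thinned counts and keratinocyte and fibroblast genes removed. It was 4 and 0 with RLE or upper quartile scaling, 0 and 0 with phase as the only factor, with the gene share of reads as covariate and with keratinocyte and fibroblast scores as covariates, 13 and 3 with limma-voom and 50 and 207 with DESeq2. It was 0 and 1 without ZT1, 1 and 0 without ZT7, 320 and 296 without ZT13, 11 and 7 without ZT19, and 1 and 0 without the 6 libraries with over 50% of reads on genes, a setting chosen after the data were seen. Leaving out 1 library gave 1 to 5 genes higher in the dark and 0 in the light. The count of 11 genes whose 2 pairs differed was 4 with RLE scaling, 5 with the share covariate, 606 with DESeq2 and 2 to 21 without 1 library. Under a replicate block (numbers 1 to 5), 1 gene was higher in the dark, 0 in the light, and 2 genes differed between the pairs. Deviations of same-numbered libraries correlated at means of -0.055 to 0.082 over the pairs of time points (minima of -0.43 to -0.10, maxima of 0.05 to 0.30). These correlations cannot decide whether same-numbered libraries shared a batch, since other differences between libraries enter the same deviations. The gene not called under the block was Fkbp5 (1.31, edgeR, adjusted p = 0.101). Without ZT19 the log2 fold change changed sign in Fam131b (0.27), Vegfc (0.67), Pcna (-0.0903), Dbp (0.11), Uqcrc1 (-0.0813), Plin1 (0.51) and Rbm3 (-0.18). Without ZT13 it did so in Dsg1a (0.12), Krt5 (0.73), Dsc3 (0.22) and Fabp4 (-0.20), without ZT1 in Top2a (0.29) and S100b (0.54), and without ZT7 in Dbp (0.55) and Nr1d1 (0.0638). With the share covariate it did so in Tap2 (-0.0033) and Uqcrc1 (-0.0215), and without the libraries over 50% in Uqcrc1 (-0.0321) and Nrp2 (0.0041). The cause was not tested. The glucocorticoid-responsive count of 9 ranged from 6 (without ZT1) to 14 (limma-voom), and the immediate early count of 9 from 4 to 10. A count of 0 allows up to 3 counts, and what depth limits was not compared between the bins of expression.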
